A study of Mus musculus with 29 samples.

Results

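The genes described here are 9 CC chemokine ligands, Ccl2, Ccl3, Ccl4, Ccl5, Ccl6, Ccl7, Ccl8, Ccl9 and Ccl12, followed through mouse brain tissue after stroke. Each was taken by name, as the row of the count tables whose Ensembl ID carries that symbol in GENCODE M21. They are 9 of 25746 genes counted, and all 9 passed the filter on low counts that left 17031 genes for testing. RNA sequencing of 29 samples counted polyA RNA from the cortex of 3-month-old mice of both sexes, 21 days after a photothrombotic stroke (21 dpi) or without stroke. The stroked groups were 4 wildtype (WT) C57BL/6 mice, 3 WT mice given tacrolimus by a subcutaneous pump from 0 dpi (WT-Tacr acute), 5 WT mice given the same drug from 7 dpi (WT-Tacr delayed), 3 Rag2-/- mice and 3 NSG mice. The non-stroked groups were 4 WT, 3 Rag2-/- and 4 NSG mice, and the 4 WT mice served all 3 WT arms, since tacrolimus without stroke was not analysed here. Tacrolimus blocks calcineurin and with it T cell activation, Rag2-/- mice have neither T nor B cells that mature, and the NSG strain, on a NOD background, lacks NK cells as well. The methods take the control tissue from the side opposite the lesion whereas the results speak of naïve mice, so these samples are called non-stroked. The number of mice per group in the methods also differs from the number of samples in the labels, so it is not known that each sample is a separate mouse, and the counts of mice given here are counts of samples.

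CC chemokines are small secreted proteins with adjacent cysteines that bind G protein-coupled receptors and draw leukocytes along a gradient. Ccl2, Ccl7 and Ccl12 act mainly through Ccr2 on monocytes, and Ccl8 acts through Ccr8 in mice. Ccl3, Ccl4 and Ccl5 attract T cells, NK cells and macrophages, and Ccl6 and Ccl9 are rodent ligands of Ccr1 that myeloid cells make. In the injured brain microglia, infiltrating macrophages and astrocytes are known sources of several of them.

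All 9 genes lie on chromosome 11 (GRCm38) in 2 blocks. The first, from 82035571 to 82116799, holds Ccl2, Ccl7, Ccl12 and Ccl8 within 81.2 kb on the plus strand. The second begins 1409 kb further on, runs from 83525778 to 83664683 and holds Ccl5, Ccl9, Ccl6 and Ccl3 on the minus strand and Ccl4 on the plus strand. All are annotated as protein-coding, and the exons of a gene, merged over its transcripts, span 511 bases (Ccl8) to 3045 bases (Ccl9). The minus-strand gene Gm17268 spans Ccl2 but had 0 counts in all samples. Of the 9 genes, 5 had an entry in the RefSeq promoter table (GRCm38.p6), namely Ccl3, Ccl6, Ccl8, Ccl9 and Ccl12. The 250 bases before the start site are printed for the trio whose levels moved most alike among stroked mice (Ccl6, Ccl8 and Ccl9) and for the gene whose level was least like the others (Ccl12), 5′ to 3′ on the strand of the gene, with capitals at each match to a motif that was searched.
Ccl6, chr11:83593088-83593337, minus strand: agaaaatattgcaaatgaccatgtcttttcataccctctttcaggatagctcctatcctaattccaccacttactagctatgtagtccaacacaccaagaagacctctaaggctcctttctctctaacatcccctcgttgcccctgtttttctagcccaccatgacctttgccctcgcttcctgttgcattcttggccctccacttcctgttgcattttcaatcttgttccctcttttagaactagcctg
Ccl8, chr11:82114935-82115184, plus strand: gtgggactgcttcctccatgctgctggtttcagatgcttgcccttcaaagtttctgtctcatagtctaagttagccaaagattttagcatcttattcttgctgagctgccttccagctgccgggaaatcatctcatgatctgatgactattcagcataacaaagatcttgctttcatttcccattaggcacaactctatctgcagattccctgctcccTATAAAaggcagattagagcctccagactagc
Ccl9, chr11:83578637-83578886, minus strand: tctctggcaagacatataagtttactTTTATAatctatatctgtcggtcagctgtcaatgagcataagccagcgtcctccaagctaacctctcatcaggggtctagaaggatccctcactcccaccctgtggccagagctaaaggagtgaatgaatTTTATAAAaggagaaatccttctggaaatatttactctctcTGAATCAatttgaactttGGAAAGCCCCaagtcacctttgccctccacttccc
Ccl12, chr11:82101595-82101844, plus strand: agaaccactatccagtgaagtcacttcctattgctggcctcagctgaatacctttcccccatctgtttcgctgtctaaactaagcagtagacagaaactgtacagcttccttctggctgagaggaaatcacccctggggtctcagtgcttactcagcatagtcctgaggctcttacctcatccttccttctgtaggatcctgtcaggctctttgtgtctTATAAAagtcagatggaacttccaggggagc
The motifs, searched on both strands, were TATAAA, the AP-1 site TGANTCA, the interferon-stimulated response element core (GAAA, any 2 bases, GAAA), the PU.1 site GAGGAAGT and the NF-kB consensus. TATAAA occurred in 3 of the 5 promoters (Ccl8, Ccl9 and Ccl12), against 12.4% of the 32851 promoters in the table. In Ccl8 and Ccl12 it began at positions -32 and -31 from the start site. In Ccl9 the letters were found at -92 and, on the opposite strand, at -94 (overlapping the first match) and -224. The Ccl9 promoter also held the AP-1 site, at -53 and matching on both strands, and the NF-kB consensus, at -35 on the opposite strand, against 6.75% and 7.25% of all promoters. Neither the response element core nor the PU.1 site was found in the 5, against 2.98% and 2.44% of all promoters.

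Total counts per sample ran from 17789044 to 43403413. The labels form 2 cohorts, Imm2 with 20 samples (median total 37223696) and TF with 9 samples (median total 23155303), with every non-stroked mouse in the former and every WT-Tacr delayed mouse in the latter. Markers of neurons were abundant in all samples, summing to 2944 to 5578 CPM (counts scaled to the normalised library size). Among stroked samples, replicates 1 and 2 of WT-Tacr acute stood apart: their 6 general myeloid markers summed to 171 and 155 CPM and their 3 astrocyte markers to 448 and 378 CPM, against at least 367 and 1039 CPM in every other stroked sample and at most 149 and 537 CPM in non-stroked samples. For both of these samples, and for no other, the number in the title differs from that in the name of the deposited file, so which mouse each file holds is not settled by the sources used here. Log2 fold changes of the ligands in this group are therefore also given from replicate 3 alone, without calls, since 1 sample has no spread. Counts for receptors, inducers and marker lists in WT-Tacr acute were made only with all 3 replicates. The 4 choroid plexus markers ranged from 3.79 to 1526 CPM, with both low and high samples in 6 of the 8 groups and only low ones in non-stroked Rag2-/- and WT-Tacr acute mice.

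The first question was how the ligands differed between stroked and non-stroked tissue in each group. At 21 dpi all 9 were higher in stroked WT mice, with log2 fold changes from 2.11 (Ccl9) to 6.94 (Ccl8) and a median of 3.75, where the median over all genes tested was 0.00. A gene is called higher here at an edgeR adjusted p below 0.05 and a log2 fold change above 1, which 6.76% of all genes met. All 9 were also called in WT-Tacr acute (median 2.87, background 2.28%), in WT-Tacr delayed (median 4.52, background 11.5%) and in NSG mice (median 3.35, background 5.01%). In Rag2-/- mice 8 of 9 were called (median 3.47, background 4.22%), and Ccl2 was not (log2 fold change 4.17 with an SE of 1.36, edgeR adjusted p = 0.0578). The Rag2-/- count fell to 3 (Ccl3, Ccl4 and Ccl6) without stroked replicate 1 or without non-stroked replicate 4, as Ccl5, Ccl7, Ccl8, Ccl9 and Ccl12 each lost their call. With the cohort as a covariate 8 of 9 were called in WT and 8 of 9 in WT-Tacr delayed mice. Ccl2 was lost in both (log2 fold change 3.08, edgeR adjusted p = 0.06476, and 3.43, adjusted p = 0.08168). The stroke comparison of delayed mice lies wholly between the cohorts. Only stroked WT (2 Imm2 and 2 TF samples) and WT-Tacr acute (1 and 2) hold both cohorts, so the covariate rests on these samples. In bulk tissue, more cells of a type that makes a ligand and more RNA per cell cannot be told apart. The summed CPM of the 9 genes lay between 1.70 and 3.14 in the 11 non-stroked samples and between 4.37 and 55.1 in the 18 stroked samples.

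**Figure D1:**
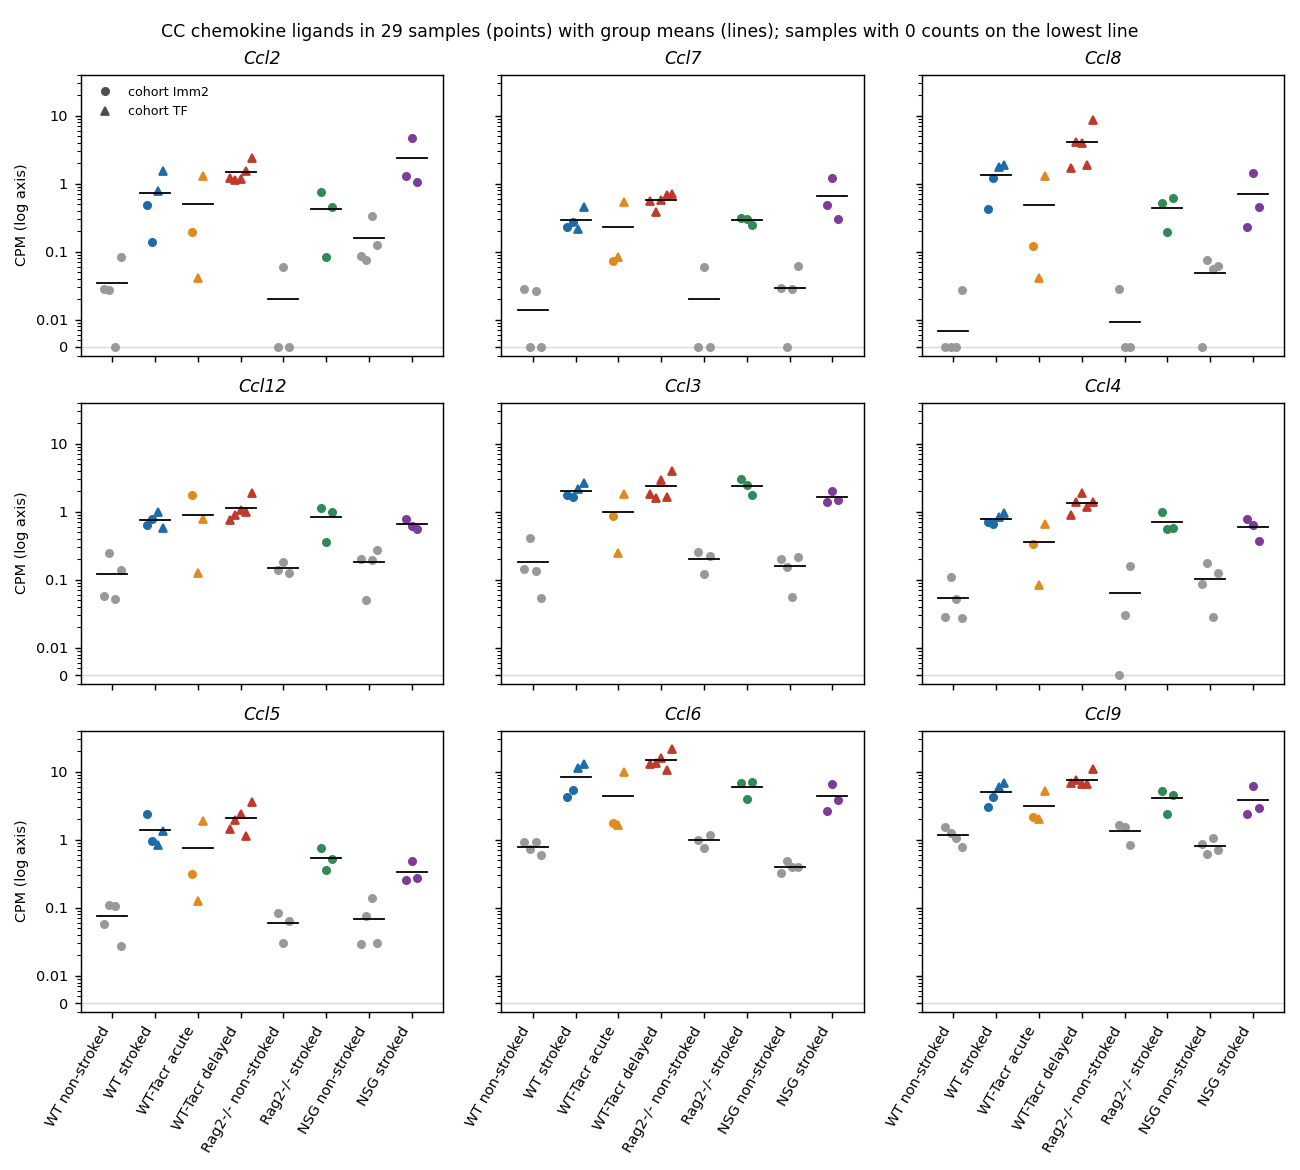
CPM of each of the 9 ligands (log axis, samples with 0 counts placed on the lowest tick) in the 8 groups, with a point per sample, circles for cohort Imm2, triangles for cohort TF and a line at the group mean. Ccl6 and Ccl9 are measurable in every sample, from 0.322 and 0.609 CPM upwards, while Ccl8 is at 0 in 6 of 11 non-stroked samples, and replicate 2 of WT-Tacr acute is the lowest stroked sample for 8 of the 9 ligands.

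Among the ligands of the first block, Ccl8 had the largest fold change in the 3 WT arms and in Rag2-/- mice, but not in NSG mice, where Ccl7 and Ccl2 had larger ones. Non-stroked WT samples held 1 Ccl8 count in all, in replicate 5, whereas stroked WT mice had 0.429, 1.19, 1.78 and 1.89 CPM. In WT-Tacr delayed mice Ccl8 stood at 1.69, 4.13, 3.93, 1.86 and 8.63 CPM. In WT-Tacr acute mice it was 0.122, 0.0416 and 1.31 CPM. The WT and delayed values thus lay far above the non-stroked samples, while the acute group ran from just above them up to the level of stroked WT mice. The ratio of the pooled rates was 181 in WT mice (163 counts against 1, with an exact 95% counting interval of 32.1 to 7199), 64.2 in WT-Tacr acute (interval 10.9 to 2597) and 573 in WT-Tacr delayed (interval 102 to 22682). These intervals cover counting error only, not the spread between mice. The fitted log2 fold changes of 6.94 (SE 1.18, edgeR adjusted p = 0.00017), 5.48 (SE 1.37, adjusted p = 0.0195) and 8.56 (SE 1.10, adjusted p = 1.63e-06) depend on the small prior count that the fit adds. With replicate 3 alone the Ccl8 change in WT-Tacr acute was 6.95. In stroked Rag2-/- mice Ccl8 reached 0.516, 0.194 and 0.613 CPM, against 1 count in the 3 non-stroked samples (ratio 43.3, interval 7.39 to 1748). In stroked NSG mice it reached 0.228, 1.43 and 0.459 CPM, against 0 to 0.0762 CPM without stroke (log2 fold change 3.75, SE 0.976, edgeR adjusted p = 0.00839).

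Ccl2, the main Ccr2 ligand that calls monocytes into tissue, was at 0.0285, 0.0272, 0 and 0.0825 CPM in non-stroked WT mice. After stroke the WT values were 0.48, 0.139, 0.782 and 1.53 CPM, with the 2 lower ones from cohort Imm2. The groups did not overlap, and the log2 fold change was 4.25 (SE 1.01, edgeR adjusted p = 0.00361). Within cohort Imm2 alone it was 3.07 with an adjusted p of 0.097, which left 8 of 9 ligands called in WT mice. NSG mice had the highest group mean of Ccl2, at 1.32, 4.69 and 1.04 CPM after stroke against 0.0877, 0.0762, 0.34 and 0.124 CPM without (log2 fold change 3.88 with an SE of 0.806, edgeR adjusted p = 0.00161). In Rag2-/- mice the stroked values of 0.746, 0.0831 and 0.46 CPM all exceeded the non-stroked ones of 0, 0.0608 and 0 CPM. Replicate 2 was close to the latter, and without it the log2 fold change was 4.66 (adjusted p = 0.03198) and Ccl2 was called as well. Ccl2 was also called by DESeq2, with the cohort as a covariate and within cohort Imm2. Of the 29 fits that each left out 1 sample, 6 called it, most of them without a sample from outside the Rag2-/- groups.

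Ccl7, which neighbours Ccl2 and shares its receptor, was the lowest of the 9 per length of exon in 5 of the 8 groups. Its counts in non-stroked WT mice totalled 2, and its stroked levels were 0.227, 0.278, 0.217 and 0.458 CPM. The ratio of pooled rates was 21.7 (interval 5.61 to 185), and the edgeR log2 fold change was 4.10 (SE 0.839, adjusted p = 0.00101). The change was 3.61 in Rag2-/- (SE 0.936, adjusted p = 0.0162), 4.39 in NSG (SE 0.720, adjusted p = 0.000223) and 5.04 in WT-Tacr delayed mice (SE 0.774, adjusted p = 1.21e-05).

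Ccl12, a second Ccr2 ligand found in mice, already stood at 0.0508 to 0.278 CPM in every non-stroked sample. It rose by log2 fold changes of 2.55 in WT (SE 0.579, edgeR adjusted p = 0.00245), 2.43 in Rag2-/- (SE 0.652, adjusted p = 0.0202) and 1.84 in NSG mice (SE 0.581, adjusted p = 0.0254). In WT-Tacr acute mice Ccl12 did not follow the other ligands. Replicate 1 had 1.78 CPM, above all stroked WT samples (0.58 to 1 CPM), replicate 3 had 0.773 CPM, and replicate 2 had 0.1249 CPM, within the non-stroked WT range of 0.053 to 0.245 CPM. The group's log2 fold change was 2.87 (SE 0.596, edgeR adjusted p = 0.00686), and 2.62 for Ccl12 with replicate 3 alone.

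Ccl3 and Ccl4, the macrophage inflammatory proteins, moved by similar amounts in most groups. Ccl3 was 1.77, 1.64, 2.13 and 2.63 CPM in stroked WT mice and 0.142, 0.408, 0.133 and 0.055 CPM in non-stroked ones (log2 fold change 3.44 with an SE of 0.489 and an edgeR adjusted p of 3.92e-05). In stroked Rag2-/- mice it was 3.01, 2.47 and 1.75 CPM (log2 fold change 3.56, SE 0.563, adjusted p = 0.000422) and in stroked NSG mice 1.39, 2.03 and 1.47 CPM (3.35, SE 0.522, adjusted p = 0.000133). Its fold change thus differed least among WT, Rag2-/-, NSG and WT-Tacr delayed mice (3.66, SE 0.480, adjusted p = 2.08e-06), compared with the other 8 ligands. Ccl4 rose by 3.75 in WT (SE 0.573, edgeR adjusted p = 7.08e-05), 3.47 in Rag2-/- (SE 0.666, adjusted p = 0.00201), 2.47 in NSG (SE 0.550, adjusted p = 0.00281) and 4.52 in WT-Tacr delayed mice (SE 0.551, adjusted p = 9.49e-07).

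Ccl5 is made by activated T cells and NK cells as well as by myeloid cells. It was 2.37, 0.945, 0.826 and 1.34 CPM in stroked WT mice, against 0.0569, 0.109, 0.106 and 0.0275 CPM without stroke. Stroked Rag2-/- mice had 0.746, 0.36 and 0.521 CPM. Stroked NSG mice had 0.253, 0.494 and 0.275 CPM. All values of both strains were below the lowest stroked WT value, but the share of all genes lying apart between stroked strains was not counted. The direct edgeR comparison with stroked WT mice passed for NSG (adjusted p = 0.0262) but not for Rag2-/- mice (adjusted p = 0.707). All stroked values lay above the non-stroked ones of the same strain, which reached 0.0849 CPM in Rag2-/- and 0.142 CPM in NSG mice. The response to stroke was 4.14 in WT (edgeR SE 0.653, adjusted p = 9.06e-05), 3.09 in Rag2-/- (SE 0.837, adjusted p = 0.021) and 2.22 in NSG mice (SE 0.759, adjusted p = 0.0377). The NSG call rested on few counts (9 to 20 per stroked library) and was lost without stroked replicates 1 or 2 or non-stroked replicates 1, 2 or 4 (log2 fold change 1.84 to 2.40). The Rag2-/- call was lost without any 1 of the non-stroked samples or without stroked replicate 1 (2.79 to 3.43).

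Ccl6 and Ccl9, the Ccr1 ligands, were the most counted of the 9 genes. Ccl6 was 0.911, 0.735, 0.928 and 0.605 CPM in non-stroked WT mice and 4.24, 5.42, 11.4 and 12.7 CPM in stroked ones, the higher pair from cohort TF (log2 fold change 3.40, SE 0.474, edgeR adjusted p = 3.45e-05). Within cohort Imm2 its change was 2.60 and still passed (adjusted p = 3.3e-05). In stroked WT-Tacr delayed mice Ccl6 was 12.9, 13.5, 16.1, 10.4 and 21.6 CPM, a range that holds both TF samples of stroked WT mice. Non-stroked NSG mice had 0.322, 0.482, 0.397 and 0.402 CPM, below every non-stroked WT sample. The share of all genes lying apart between these groups was not counted. The difference did not pass the test (log2 fold change -0.97, SE 0.556, edgeR adjusted p = 0.313). Ccl9 had the smallest response in WT, WT-Tacr acute, WT-Tacr delayed and Rag2-/- mice, from 1.42 (SE 0.383, adjusted p = 0.0258) in acute to 2.72 (SE 0.354, adjusted p = 1.91e-06) in delayed mice.

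**Figure D2:**
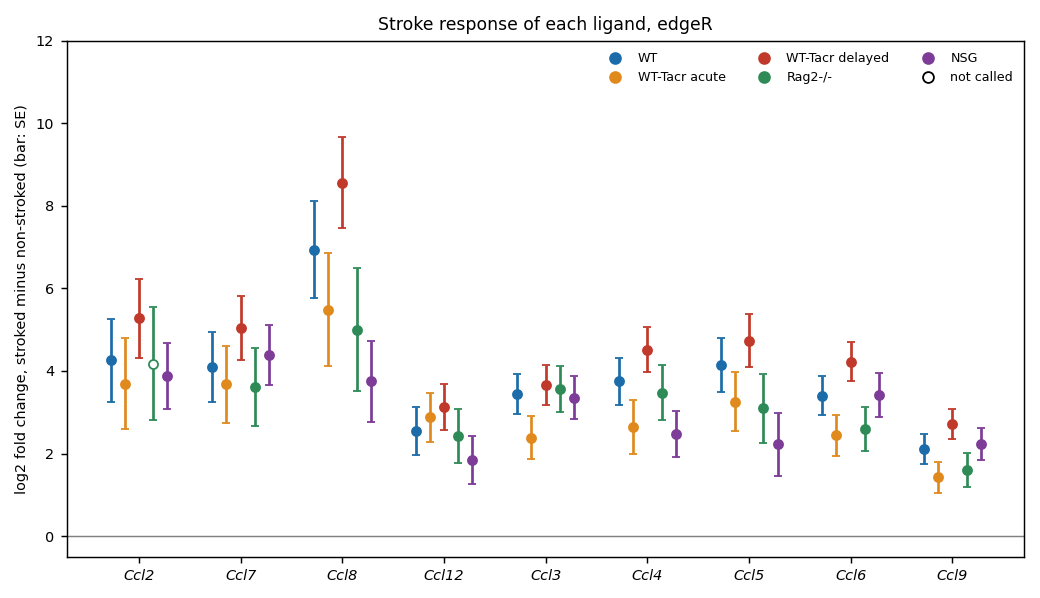
Log2 fold change of each ligand between stroked and non-stroked mice by edgeR, with the SE as a bar, for the 5 stroked groups, where the open symbol marks the value that was not called. Ccl8 spans 3.75 (NSG) to 8.56 (WT-Tacr delayed), Ccl3 stays between 2.39 and 3.66, and Ccl2 in Rag2-/- mice (4.17) is the open symbol.

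Levels of different genes were compared per kb of exon. In non-stroked WT mice Ccl6 (0.443 ± 0.0857 CPM per kb, SD, n = 4) and Ccl9 (0.379 ± 0.106) stood first, within each other's spread, followed by Ccl3 (0.241 ± 0.201) and Ccl12 (0.229 ± 0.168), while Ccl8 was last (0.0134 ± 0.0269). In stroked WT mice the order was Ccl6 (4.71 ± 2.37), Ccl3 (2.66 ± 0.578), Ccl8 (2.59 ± 1.31) and Ccl9 (1.64 ± 0.575), with Ccl7 last (0.368 ± 0.1397) and neighbours in this order within 1 SD of each other from Ccl3 to Ccl4. Ccl8 thus moved from 0.889% of the length-scaled sum of the 9 ligands to 15.6% in stroked WT and 26.2% in WT-Tacr delayed mice, where it stood beside Ccl6 (7.92 ± 5.48 and 8.31 ± 2.37 CPM per kb, n = 5). In stroked NSG mice Ccl6 (2.41 ± 1.08), Ccl3 (2.13 ± 0.452) and Ccl2 (2.07 ± 1.79) led, and Ccl5 was last with 2.83% of the sum, against 8.59% in stroked WT mice. Ccl12 was the highest per length in non-stroked NSG mice (0.341 ± 0.178 CPM per kb, n = 4), ahead of Ccl9 (0.269 ± 0.0672) by less than its spread. These orders are a description of the group means and were not tested.

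**Figure D3:**
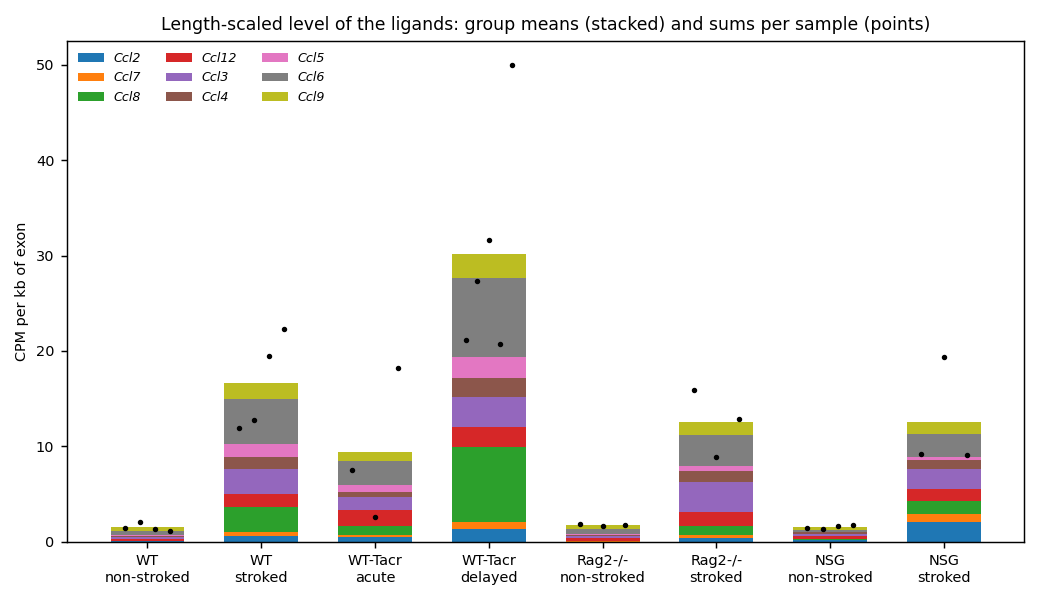
Mean CPM per kb of exon of the 9 ligands, stacked for each group, with a black point for the sum in each sample. Non-stroked sums stay between 1.11 and 2.11 CPM per kb, stroked sums run from 2.60 in replicate 2 of WT-Tacr acute to 50.03 in replicate 5 of WT-Tacr delayed, and Ccl8 and Ccl6 fill most of the difference between WT and WT-Tacr delayed mice.

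The background also holds for the separation of the groups. Every stroked sample lay above every non-stroked sample for all 9 ligands in WT (background 16.3% of all genes), WT-Tacr delayed (26.5%), Rag2-/- (18.8%) and NSG mice (13.6%). In WT-Tacr acute this held for 5 of 9, where the background was 10.4%. The exceptions were Ccl2, Ccl3, Ccl4 and Ccl12, and in each of them replicate 2 alone fell within the non-stroked range. The calls in this group rested on replicate 3. With replicates 1 and 2 left out, which leaves 1 sample, the log2 fold changes ran from 2.18 (Ccl9) to 6.95 (Ccl8). With replicate 3 left out 1 ligand was called, Ccl12 (log2 fold change 2.98, edgeR adjusted p = 0.047). With the cohort as a covariate 1 of 9 was called, again Ccl12. Cohort Imm2 held 1 sample of this group, replicate 1, so no count is given within it. That sample had the highest Ccl12 of the group (1.78 CPM).

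The next question was whether immunosuppression or strain changed the level after stroke. No ligand differed between stroked WT-Tacr acute and stroked WT mice by edgeR (0 of 9 called, 3 at an unadjusted p below 0.05, background 0%), nor by DESeq2. Of the 9, 8 had lower fitted values in acute mice, from -0.42 (Ccl7, SE 0.620) to -1.46 (Ccl8, SE 0.760, adjusted p = 0.425), and Ccl12 was at 0.33. Without replicate 3 the count of lower ligands was 5, Ccl6 among them (log2 fold change -2.30, edgeR adjusted p = 0.0015). With replicate 3 alone Ccl6 was at 0.21. All 9 had higher fitted values in WT-Tacr delayed than in stroked WT mice, and again 0 were called by edgeR (2 at an unadjusted p below 0.05, background 0%), while DESeq2 gave no adjusted p for these 2, Ccl6 and Ccl8. Ccl8 was at 1.62 (SE 0.60, edgeR adjusted p = 0.166) and Ccl6 at 0.82 (SE 0.389, adjusted p = 0.238). Within cohort TF, with 2 stroked WT mice, these values were 1.13 and 0.31, each with an adjusted p of 0.9998.

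Between the tacrolimus arms, 5 ligands were called higher in delayed than in acute mice (background 5.75%). These were Ccl8 (log2 fold change 3.08, SE 0.754, edgeR adjusted p = 0.0118), Ccl4 (1.88, SE 0.484, adjusted p = 0.0131), Ccl6 (1.78, SE 0.455, adjusted p = 0.0125), Ccl9 (1.29, SE 0.363, adjusted p = 0.0172) and Ccl3 (1.27, SE 0.444, adjusted p = 0.0438). Ccl4, for example, was at 0.885, 1.39, 1.86, 1.18 and 1.39 CPM in delayed and 0.341, 0.0832 and 0.657 CPM in acute mice. The values of Ccl4, Ccl6, Ccl8 and Ccl9 did not overlap between the arms, and those of Ccl3 did. The share of all genes lying apart in this comparison was not counted. Ccl5 missed the threshold (1.48, SE 0.544, adjusted p = 0.0547), and Ccl12 was at 0.26 (adjusted p = 0.739). The count fell to 0 without replicate 1 or without replicate 2 of the acute group and to 0 within cohort TF. It rose to 8 without replicate 3. The general myeloid markers moved with it: 3 of 6 were called higher in delayed mice, and their sum was 640 to 1362 CPM in delayed and 155, 171 and 706 CPM in acute mice. Choroid plexus markers did so too, with 3 of 4 called and a sum of 9.29 to 827 CPM in delayed against 3.79 to 13.7 CPM in acute mice. The part of either in the difference was not tested.

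Among the strains, Ccl5 was the only ligand of the 9 called in a direct comparison after stroke. It was lower in stroked NSG than in stroked WT mice, by a log2 fold change of -2.003 (SE 0.59, edgeR adjusted p = 0.0262, background 3.26%). Within cohort Imm2 the difference was -2.27 (adjusted p = 0.0091), with the cohort as a covariate -1.95 (adjusted p = 0.051), and it lost its call without NSG replicate 1 or 3 or WT replicate 1 (log2 fold change -1.59 to -1.88). Ccl2 (1.70, SE 0.699, adjusted p = 0.108) and Ccl7 (1.17, SE 0.531, adjusted p = 0.145) had higher fitted values in NSG mice. Without NSG replicate 2 these were 0.71 for Ccl2 and 0.42 for Ccl7 (adjusted p = 0.55 and 0.6605), whereas with the cohort as a covariate Ccl2 was called (2.87, adjusted p = 0.021). In stroked Rag2-/- against WT mice 0 of 9 were called by edgeR and by DESeq2 (2 at an unadjusted p below 0.05, background 0.00587%). Ccl5 was at -1.35 there (SE 0.565, edgeR adjusted p = 0.707) and Ccl8 at -1.57 (SE 0.750, adjusted p = 0.707).

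T cell markers stood beside the Ccl5 values. Of the 6 markers, 4 were tested, and Cd3e, Cd3g and Cd8a were called higher after stroke in WT mice, with 0 of 4 called in NSG and 0 of 4 in Rag2-/- mice, and these 3 were called lower in stroked NSG than in stroked WT mice. Cd3d, Cd3g, Cd8a and Cd8b1 were at 0 in all stroked NSG samples and Cd3d in all stroked Rag2-/- samples, while Cd4 made up most of the summed level of 1.31 to 26.4 CPM in NSG, 1.53 to 17.0 CPM in Rag2-/- and 7.42 to 22.3 CPM in stroked WT mice. Of the NK cell markers, Eomes, which some neurons also express, was also called lower in stroked NSG mice, and Ncr1 and Klre1 were at 0 there. Their part in the Ccl5 difference was not tested.

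The difference of responses, which sets stroke against no stroke within each strain, called 0 of 9 ligands for Rag2-/- against WT (background 0%) and 0 of 9 for NSG against WT (background 0.0117%) by edgeR and by DESeq2, with 0 at an unadjusted p below 0.05 in both. For Ccl5 in NSG mice it was -1.92 (SE 1.11, edgeR adjusted p = 0.462) and for Ccl8 -3.19 (SE 1.995, adjusted p = 0.4925), so the lower response of Ccl5 was not shown by this test. Nor was a ligand called between non-stroked strains, for NSG against WT (0 of 9, background 3.36%) or Rag2-/- against WT (0 of 9, background 0.00587%) by edgeR and by DESeq2, with 0 at an unadjusted p below 0.05. With 0 to 3 counts of Ccl8 and 0 to 2 counts of Ccl7 in each non-stroked library, these comparisons rest on very few counts.

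Among the 18 stroked samples the ligands rose and fell together to differing degrees. Over the 36 pairs Pearson's r of log2 CPM ran from 0.23 (Ccl7 and Ccl12) to 0.96 (Ccl6 and Ccl9), with a median of 0.68. The trio of Ccl6, Ccl8 and Ccl9, whose promoters are printed above, had r of 0.95 to 0.96 with one another. By r, Ccl2 and Ccl7 were each other's closest ligand (0.84), as were Ccl3 and Ccl4 (0.84). Spearman's rho was 0.88 for Ccl2 and Ccl7 but 0.55 for Ccl3 and Ccl4. By rho, Ccl6 was closer to both Ccl3 (0.63) and Ccl4 (0.84). After the group means were removed the 3 pairs of the trio kept r of 0.92 to 0.93, and the median over the 36 pairs was 0.69. Ccl12 was the least alike, with a median r of 0.50 to the other 8. The samples differ in strain, in tacrolimus treatment, in cohort (9 in each), in depth and in lesion content. All of these enter the values together, and the values are a description with no test.

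**Figure D4:**
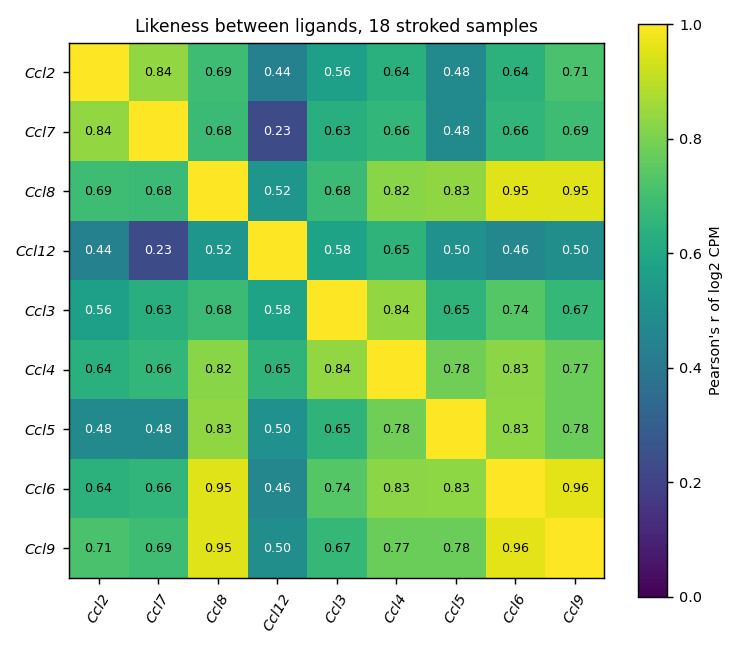
Pearson's r of log2 CPM between each pair of ligands over the 18 stroked samples, from 0 (dark) to 1 (bright). The brightest block joins Ccl6, Ccl8 and Ccl9 at 0.95 to 0.96, and the row of Ccl12 is the darkest, from 0.23 with Ccl7 to 0.65 with Ccl4.

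Outside the 9 ligands, the genes whose log2 CPM was most like theirs over the 18 stroked samples differed by ligand. Ptprc, which encodes the pan-leukocyte antigen CD45, was the closest to both Ccl6 (r = 0.98, rho = 0.97) and Ccl9 (r = 0.96, rho = 0.95). Ccl8 was closest to Anxa1 (r = 0.96, rho = 0.96) and Tlr4 (r = 0.96, rho = 0.95), Ccl4 to Cd52 (r = 0.96, rho = 0.91), and Ccl2 to the monocyte coreceptor gene Cd14 (r = 0.92, rho = 0.83). The 3 genes closest to Ccl5 were H2-K1 (r = 0.92), Psd4 (r = 0.91) and Cd3g (r = 0.91). H2-K1 is an MHC class I gene, and Cd3g encodes a subunit of the T cell receptor complex. Cd3g averaged 0.18 CPM over the stroked samples and was at 0 in all stroked NSG samples. The 18 samples mix strains, which enters these r values too. For Ccl3 the closest was Agpat2 (r = 0.96, but rho = 0.72), for Ccl7 Nuak2 (r = 0.92) and for Ccl12 Polh (r = 0.80, rho = 0.69), whose r over all 29 samples was 0.11.

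The receptors of these ligands, listed together with atypical or related receptor genes such as Ccrl2, had a median log2 fold change of 0.92 in WT mice. The ligands had 3.75, and this difference was not tested. Of 9 listed receptors 6 were tested, and those called higher were Ccr1 and Ccr2 in WT, Ccr2 in WT-Tacr acute, Ccr1, Ccr2 and Ccrl2 in WT-Tacr delayed, Ccr1 and Ccrl2 in NSG and 0 in Rag2-/- mice. Ccr2, the monocyte receptor, rose by 2.73 in WT (SE 0.57, edgeR adjusted p = 0.00124) and 3.34 in WT-Tacr delayed mice (SE 0.56, adjusted p = 2.99e-05), and was at 1.72 in Rag2-/- (adjusted p = 0.0993) and 1.42 in NSG mice (adjusted p = 0.108). Ccr1, the receptor of Ccl6 and Ccl9, rose by 1.80 in WT (SE 0.50, adjusted p = 0.0103) and 2.75 in NSG mice (SE 0.63, adjusted p = 0.0033). The related receptor gene Ccrl2 rose by 1.56 in NSG (SE 0.41, adjusted p = 0.00921) and 1.63 in delayed mice (SE 0.38, adjusted p = 0.000895). The remaining CC receptors, which do not bind these ligands, gave 1 of 5 in WT (Ccr7), 2 in delayed (Ccr6 and Ccr7) and 1 in NSG mice (Ccr9).

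The other CC ligands did not move as the 9 did. Of 15 listed, 8 were tested, and those called higher after stroke were Ccl24 in WT, Ccl11, Ccl22 and Ccl24 in WT-Tacr delayed, Ccl11 in NSG and 0 in WT-Tacr acute and Rag2-/- mice. Their median log2 fold change in WT mice was 0.52. Ccl11, which lies within the first block and attracts eosinophils, rose by 2.96 in delayed (SE 0.83, edgeR adjusted p = 0.00419) and by 3.34 in the NSG strain (SE 0.89, adjusted p = 0.00946), and was at 1.86 in WT mice (adjusted p = 0.137). Ccl21b fell by 1.51 in delayed mice (SE 0.33, adjusted p = 0.000835), and its reads cannot be told from those of its near-identical copies.

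Of 15 inducers and signalling genes upstream of chemokine transcription, 13 were tested, and 6 were called higher in WT, 2 in WT-Tacr acute, 9 in WT-Tacr delayed, 3 in Rag2-/- and 5 in NSG mice. Il1b was called in all 5 groups, Il1a and Irf8 in all but WT-Tacr acute, and Tnf in WT, WT-Tacr delayed and NSG mice. Irf8, a transcription factor of myeloid cells, rose by 1.64 in both WT (SE 0.27, edgeR adjusted p = 0.000116) and NSG mice (with SE 0.28, adjusted p = 0.000314). Nfkbia, the NF-kB inhibitor that NF-kB itself induces, was at 0.96 in WT (SE 0.18, adjusted p = 0.000539), short of the fold threshold, and rose by 1.70 in NSG mice (SE 0.20, adjusted p = 1.73e-05). Irf7, an interferon-response factor, rose by 2.60 in delayed (SE 0.38, adjusted p = 7.42e-06) and 1.36 in WT mice (SE 0.39, adjusted p = 0.0119). Nfkb2, an NF-kB subunit gene, rose by 1.52 in delayed (adjusted p = 1.07e-05) and 1.07 in WT mice (adjusted p = 0.00207).

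Markers of myeloid cells were also called higher in every stroked group, but did not follow the ligands in every sample. Of the 6 general markers (Aif1, Itgam, Csf1r, Ptprc, Cd68 and Lyz2), 6 were called higher in WT, 4 in acute, 6 in delayed, 4 in Rag2-/- and 4 in NSG mice. Their summed level was 113 to 149 CPM in non-stroked samples, 367 to 796 CPM in stroked WT, 155 to 706 CPM in acute, 640 to 1362 CPM in delayed, 408 to 462 CPM in Rag2-/- and 430 to 1045 CPM in NSG mice. In WT-Tacr acute replicate 1 the markers summed to 171 CPM, near the non-stroked range. Its ligands summed to 7.59 CPM, where non-stroked samples reached 3.14 CPM. Stroked Rag2-/- replicate 2 had more marker CPM than replicate 3 (438 and 408) but fewer ligand CPM (10.6 and 16.7). Microglial markers were called in 2 of 6 in WT mice, and the list's median log2 fold change was 0.68, lower than that of the general markers (1.99). Among astrocyte markers Gfap was called in all 5 groups. In stroked WT mice 5 of 6 markers of border-associated macrophages, 3 of 5 of monocytes, 4 of 4 of neutrophils and 2 of 2 of NK cells were also called higher, and 0 of 2 of B cells, 0 of 4 of neurons, 0 of 3 of oligodendrocytes, 0 of 3 of endothelium and 0 of 4 of choroid plexus. Which cells made the ligands was not tested.

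**Figure D5:**
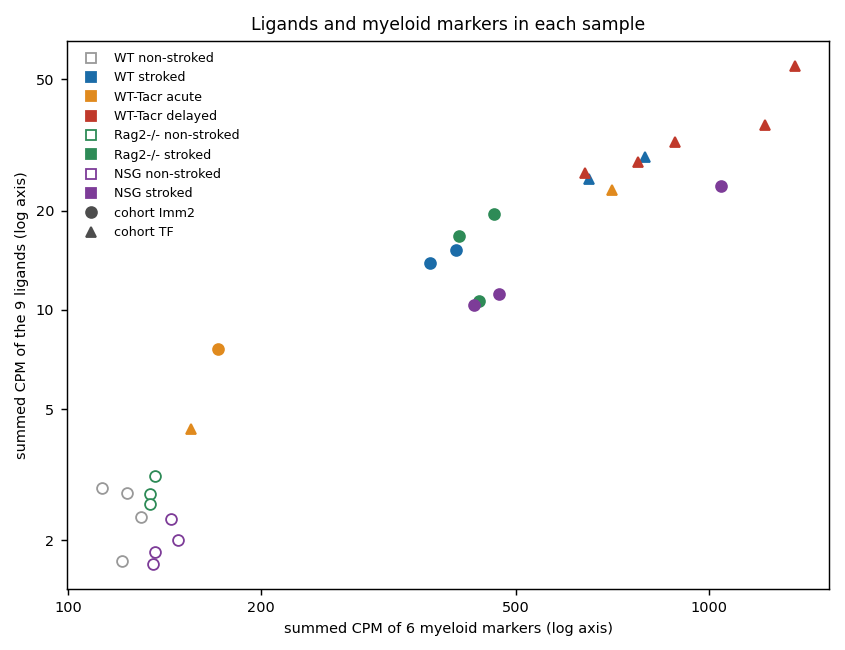
Summed CPM of the 9 ligands against the summed CPM of 6 general myeloid markers (both log axes) in 29 samples, with open symbols for non-stroked and filled symbols for stroked samples, circles for cohort Imm2 and triangles for cohort TF. Non-stroked samples gather at 113 to 149 CPM of markers and 1.70 to 3.14 CPM of ligands, replicates 1 and 2 of WT-Tacr acute lie nearest to them, and replicate 5 of WT-Tacr delayed is at the top with 1362 and 55.1 CPM.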

How the data were processed

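Tissue of 29 samples was sequenced as polyA RNA with a TruSeq stranded kit. The authors deposited raw counts per gene, with no normalisation. The aligner, the genome build and whether counting used strand are not given in the sources used here. Of 25746 Ensembl IDs, 25712 were named from GENCODE M21 (GRCm38) and 34 had no entry.

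Groups came from the sample labels. Replicates 1 and 2 of WT-Tacr acute have a number in the title that differs from that in the name of the deposited file, and the sample that the file is deposited under was used. Genes passing edgeR's filterByExpr by group (17031) were normalised by TMM and tested in 1 quasi-likelihood fit of 8 groups (edgeR 4.0.16, R 4.3.3) with Benjamini-Hochberg adjustment over all of them. Calls required an adjusted p below 0.05 together with a log2 fold change beyond 1 in either direction. The SE is the absolute log2 fold change divided by the square root of F. The fit adds a prior count of 0.125. CPM use the TMM library size, log2 CPM a prior count of 2, and levels per kb the merged exon length. Intervals of rate ratios are exact at 95%. The labels do not say whether replicates differ in more than the mouse, and p-values measure the spread between these samples. Depth ran from 17789044 to 43403413 counts per sample, and genes with few counts carry counting error beside the spread between mice. On simulated counts for the WT stroke comparison (16771 genes) the fit recovered 172 of 200 changed genes and called 1 other.

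The 9 ligands, the gene lists and the tests were chosen with earlier results of these data known. Named beside the ligands are called receptors and ligands of the lists, the 4 inducers with the smallest p and the 3 genes most alike to each ligand. Il1b, Il1a and Tnf are named for the groups in which they were called. Alternatives were RLE scaling, no filter, a mean of at least 1 CPM, DESeq2 1.42.0, no fold threshold, the cohort as a covariate, cohort Imm2 alone, only the groups compared, a replicate block and leaving out each sample, and, chosen after seeing the data, cohort TF alone and WT-Tacr acute with replicate 3 alone. Tables and figures were made with Python 3.11.15, pandas 2.3.3, SciPy 1.17.1 and matplotlib 3.10.9.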

Additional observations from a re-analysis of the deposited data

Results flagged for a closer look

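In groups of 4 or 5 samples, 3 of 36 combinations of ligand and group held a sample far from the rest of its group by Dixon's ratio. Its cut-off gives about 1 in 20 by chance for normally distributed values, a rate that does not hold for counts near 0. Ccl9 was 10.9 CPM in replicate 5 of stroked WT-Tacr delayed mice, against 6.497 to 7.46 CPM in the other 4. Ccl12 was 1.88 CPM in the same sample, against 0.764 to 1.08 CPM in the other 4. Ccl8 was 0.0275 CPM in replicate 5 of non-stroked WT mice, which is 1 count, against 0 in the other 3. With the others at 0, any count gives this ratio of 1.0, so the flag carries no weight.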

How the results depend on the processing

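With a mean of at least 1 CPM, 4 ligands were tested (Ccl3, Ccl6, Ccl8 and Ccl9) and 4 were called higher in each of the 5 stroke comparisons, while 0 were called lower in stroked NSG against WT mice because Ccl5 was filtered out. In WT-Tacr acute the count of 9 became 1 with the cohort as a covariate and 0 when the fit held just the 2 groups compared. The 5 ligands higher in delayed than in acute mice became 3 with the cohort as a covariate and 0 in cohort TF and with only the groups compared. In stroked NSG against WT mice the cohort as a covariate gave 1 higher (Ccl2) and 0 lower, and only the groups compared gave 0 lower. Ccl6 in stroked acute against WT mice turned from -0.96 to 0.21 with acute replicate 3 alone. Apart from those that follow from fewer tests or samples, the cause was not tested.

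Leaving out each sample gave 9 to 9 called in WT and WT-Tacr delayed, 1 to 9 in WT-Tacr acute, 3 to 9 in Rag2-/- (3 without stroked replicate 1 or non-stroked replicate 4) and 7 to 9 in NSG mice (7 without stroked replicate 1 or 2 or non-stroked replicate 2). It gave 0 to 8 higher in delayed than in acute mice, 0 to 1 lower in stroked NSG and 0 to 5 lower in stroked acute than in WT mice.

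Deviations of same-numbered samples of non-stroked strains had r of -0.233, 0.118 and -0.154 for NSG and WT, and 0.107 and 0.107 for Rag2-/- and WT. With 2 shared numbers the 2 values for Rag2-/- are equal by construction and count as 1. So few values cannot settle whether the number pairs samples. On these samples, with 2 ligands tested, the replicate block gave 0 calls in both comparisons and the same samples without the block gave 1 lower in NSG mice.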
